A study of Canis lupus familiaris with 8 samples.

Results

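The proteins of the mitochondrial ribosome were examined at the RNA level in the left ventricle of dogs with alloxan-induced diabetes (DM dogs) and of control dogs. The members were all probe sets of the array, other than the manufacturer's controls, whose annotation gave a single gene symbol that was either DAP3 or MRPL or MRPS followed by a number. This rule found 80 of the 23836 tested probe sets, for 55 of the 6540 genes named by probe sets with a single symbol. By symbol, 45 probe sets of 33 genes belong to the large subunit (MRPL) and 35 probe sets of 22 genes to the small subunit (MRPS and DAP3). Values measured in the arrays played no part in the rule.

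The mitochondrial ribosome translates the few messenger RNAs of the mitochondrial genome, which encode core subunits of the respiratory chain and of ATP synthase. Its ribosomal RNAs are made inside the organelle, whereas all of its proteins are encoded in the nucleus, translated in the cytosol and imported. Some of these proteins descend from those of the bacterial ribosome, and the others are found only in mitochondria. In the heart, whose contraction depends on oxidative ATP production, mitochondria fill much of the muscle cell. None of the symbols for the messenger RNAs of the mitochondrial genome was matched on the array, so only the nuclear side of this system was measured here.

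The 4 control dogs (D5, D6, D7 and D8) and the 4 DM dogs (0292, 0294, 1087 and 1111) were male mongrels of 23 to 27 kg by the labels. According to the methods, all were instrumented surgically. DM dogs then received an intravenous injection of alloxan, a toxin of the pancreatic beta cell, at 40 to 60 mg/kg. Entry to the DM group required a day 7 glucose, measured after fasting, of more than 200 mg/dl. Hearts of DM dogs were taken 4 weeks after alloxan. Neither the age of the dogs nor any vehicle injection of control dogs was stated, and effects of alloxan itself and of the loss of insulin cannot be told apart in this design. The question was which cardiac genes differ in expression between DM and control dogs, and 1 Affymetrix Canine Genome Array was hybridized per dog, so that n = 4 in each group. Values below are log2 of the normalized signal, and a difference is the mean of DM dogs minus the mean of control dogs.

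The arrays differed in ways other than the group. Records of control arrays and of DM arrays carry separate runs of numbers, and neither run holds arrays of both groups. By the methods, RNA isolation was done together for all dogs, but dates of hybridization were not stated. Any difference in array processing between these runs would coincide with the group, and its part in the differences below was not tested. The 18 hybridization control probe sets, which detect RNAs added in equal amount to each sample, measured 13.09 to 13.36 on the log2 scale of the scaled signal in D5, D6 and D7, 15.77 in D8 and 15.17 to 17.72 in DM dogs (exact permutation p = 0.0571, two-sided, smallest possible 0.0286). Control dog D8 thus stood apart from the other control dogs, and results that rest on it are given below with and without it. The difference between the 3′ and the 5′ probe sets of GAPDH was 4.36 ± 1.10 (SD, n = 4) for the control group and 1.76 ± 1.03 for the DM group (exact permutation p = 0.0286), and that of actin was 3.31 ± 2.34 and 5.62 ± 1.56 (exact permutation p = 0.171). Cardiomyocyte markers were bright, but 6 of the 8 measured markers were lower in DM dogs at an unadjusted limma p under 0.05 and none was higher. Their mean level ran from 13.23 to 15.56 in control dogs and from 10.76 to 12.60 in DM dogs, and the dimmest of the 8 stood at percentile 83.3 of mean signal. At the same level 1 of 4 fibroblast and 1 of 3 smooth muscle markers were lower, 1 of 5 macrophage and 1 of 3 skeletal muscle markers were higher, and 0 of 3 endothelial markers and 0 of 1 lymphocyte marker passed. Of all tested probe sets, 8.91% were lower and 7.8% higher at this level. The part of these array and tissue measures in the differences below was not tested, and in whole tissue fewer cells of a type and less RNA per cell cannot be told apart.

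Messages of mitochondrial ribosomal proteins lay lower in DM dogs more often than they lay higher. Of the 80 probe sets, 55 (68.8%) had a mean below that of control dogs and 25 had a mean above it. Their median difference was -0.64, compared with 0.06 over all tested probe sets, of which 48.1% lay below 0. No member passed an adjusted p of 0.05 in limma with Benjamini-Hochberg adjustment over all 23836 probe sets, where 0.0168% of all probe sets passed as lower and 0% as higher. The smallest adjusted p was 0.0637, for MRPL23. The individual differences below are therefore described by their size, their spread and by whether they passed an unadjusted p of 0.05.

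At an unadjusted limma p under 0.05, 18 member probe sets (22.5%) of 16 genes were lower, compared with 8.91% of all tested probe sets. Only 2 members (2.5%), of MRPL1 and MRPL16, were higher at this level, compared with 7.8% of all. In 18 member probe sets (22.5%) of 15 genes every DM dog lay below every control dog, compared with 5.87% of all probe sets. In no member did every DM dog lie above every control dog, a pattern seen in 4.93% of all probe sets. By the criteria of the methods, a two-class test at P of at most 0.01 and at least 2-fold, 7 members (8.75%) were lower and 0 higher, compared with 2.52% and 2.45% of all probe sets. The 7 were probe sets of MRPL23, MRPL45, MRPL48, MRPL57, MRPS12, MRPS14 and MRPS18A. After Benjamini-Hochberg adjustment of that test no member remained. The count of 7 fell to 2 without D5 (1.2% of all probe sets), D6 (1.19%) or D7 (1.29%) and to 3 without 0294 (2.11%). It rose to 10 without 0292 (2.39%) or 1111 (4.16%). The count of higher members at an unadjusted p under 0.05 became 1 without D5 (5.16% of all) or 0294 (7.78%). That count was 4 without 0292 (9.59%) or 1111 (9.08%) and 10 without D8 (8.02%). Of the 20 members past an unadjusted p of 0.05 in either direction, 10 also passed it in every comparison that left out 1 dog, and the other 10 missed it in at least 1 of these.

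**Figure D1:**
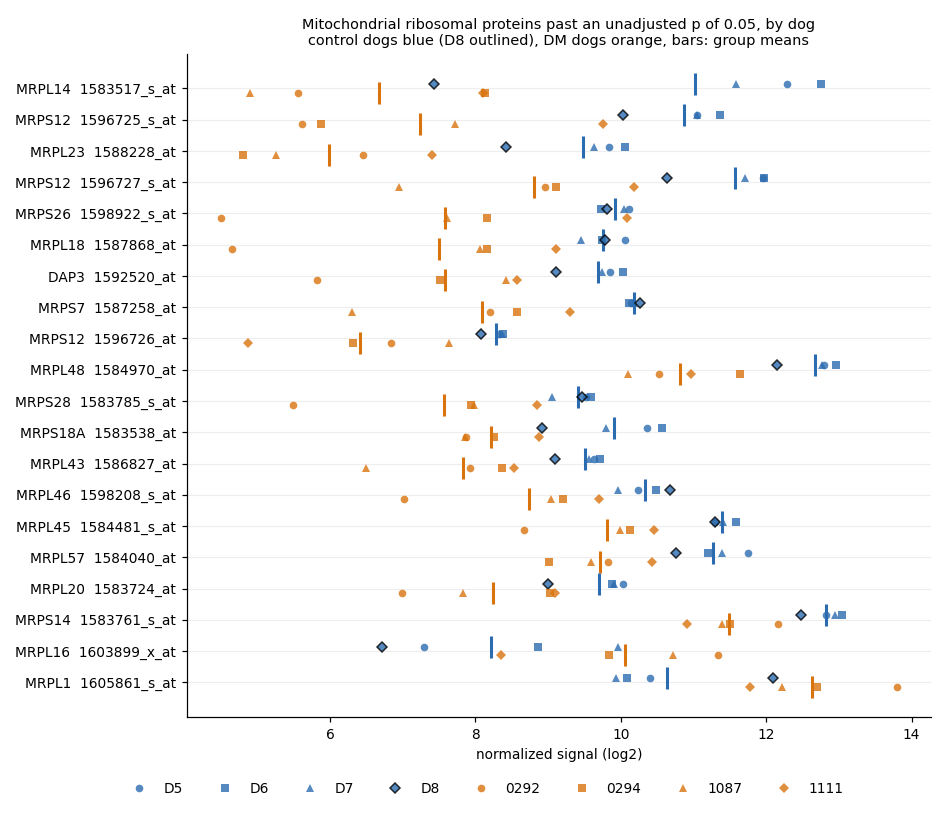
Normalized signal (log2, horizontal axis) of the 20 member probe sets past an unadjusted limma p of 0.05, for each of 4 control dogs (blue, D8 outlined) and 4 DM dogs (orange), with vertical bars for group means. In 18 probe sets the DM mean lies to the left of the control mean, and in MRPL16 and MRPL1 at the bottom it lies to the right. Scaling to the hybridization controls, which shifts every probe set downward in DM dogs by construction, leaves no member above 0.

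The size of the shift depended on how the arrays were brought to a common scale. The median of members lay below that of all probe sets with and without quantile normalization. Without quantile normalization the median of all tested probe sets was 0.34 and that of the members -0.61. After median centring they were -0.25 and -1.20. Scaling to the hybridization controls gave -1.65 and -2.96, with all 80 members below 0. This last scaling gives the group difference of these controls to every probe set by construction. The loss of a positive sign under it therefore says nothing about any given member. Relative to the median of all probe sets, the members' median was -0.69 as analysed here and -0.95 without quantile normalization. Median centring shifts all probe sets by 1 shared amount, so it gives the same -0.95 by construction. Scaling to the hybridization controls, at -1.31, also applies 1 factor per array, before the offset is added. Neither of these last 2 is a separate check on the position of the members.

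Among the large subunit proteins with a bacterial counterpart, MRPL23 had the smallest p. MRPL23 lies at the exit of the tunnel through which the growing chain leaves the ribosome. Its signal was 9.84, 10.05, 9.63 and 8.42 in D5, D6, D7 and D8, and 6.45, 4.80, 5.26 and 7.41 in 0292, 0294, 1087 and 1111. All 4 DM dogs were below all 4 control dogs, with a difference of -3.50 (SE 0.70, limma adjusted p = 0.0637), which is 11.3-fold on this scale. Without D8, whose value was the lowest among control dogs, the difference was -3.86 (limma adjusted p = 0.0366), and without DM dog 1111, the highest among DM dogs, it was -3.98 (limma adjusted p = 0.0274). These are the dogs of each group nearest to the other group, so that leaving them out favours a smaller p. Leaving out any other dog gave no member an adjusted p under 0.05, where at most 0.0042% of all probe sets passed.

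MRPL14 had the largest difference of all members, and it also shows how far a result can rest on D8. MRPL14 sits on the face of the large subunit that meets the small subunit. The probe set 1583517_s_at measured 12.29, 12.76, 11.59 and 7.43 in D5 to D8 and 5.56, 8.13, 4.91 and 8.11 in 0292, 0294, 1087 and 1111. Here D8 lay below 0294 and 1111, so the groups overlapped, and the difference was -4.34 (SE 1.13, limma adjusted p = 0.0995). Without D8 it was -5.54 (limma adjusted p = 0.0292). In that comparison 0.94% of all tested probe sets were lower and 0.495% higher at an adjusted p under 0.05, and the members among them were MRPL14 and MRPL23. The other MRPL14 probe sets had differences of -1.59 (1583516_at, with D8 at 5.46 and the other control dogs at 9.59 to 11.03) and 1.44 (1602497_at, limma adjusted p = 0.307).

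MRPL18 and MRPL20 were lower at an unadjusted p under 0.05 as well. MRPL18 belongs to the central protuberance, the crown of the large subunit, and the bacterial counterpart of MRPL20 acts early in the assembly of its subunit. MRPL18 measured 9.45 to 10.06 in control dogs, D8 included, and 4.65, 8.16, 8.07 and 9.11 in 0292, 0294, 1087 and 1111. The groups did not overlap, but 0292 carried much of the difference of -2.26 (SE 0.85, limma adjusted p = 0.209), which was -1.31 without that dog. For MRPL20 the difference was -1.47 (SE 0.65, limma adjusted p = 0.274), and D8, at 9.0 against 9.88 to 10.03 in the other control dogs, lay within the range of DM dogs. MRPL20 missed an unadjusted p of 0.05 when D5, D6, D7, 0292 or 1087 was left out.

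The remaining large subunit proteins with a bacterial counterpart spread to both sides of 0. MRPL2, MRPL3, MRPL9, MRPL17, MRPL22, MRPL24, MRPL27 and MRPL32 had 1 probe set each, with differences from -1.06 (MRPL9) to -0.21 (MRPL3). MRPL15, MRPL19, MRPL30, MRPL33 and MRPL35 had differences from 0.63 (MRPL35) to 1.42 (MRPL30), and like every member were below 0 after scaling to the hybridization controls. None of these 13 probe sets passed an unadjusted p of 0.05, and the groups overlapped in all of them. MRPL3, a protein near the peptidyl transferase centre, was steady in control dogs at 10.29 to 10.51, and in DM dogs 0292 at 8.85 stood below the others at 10.51 to 10.69.

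Of the large subunit proteins found only in mitochondria, 5 genes had a probe set with lower signal at an unadjusted p under 0.05. Over both subunits, 7 of the 26 probe sets of this class (26.9%) were lower at that level, compared with 8.91% of all tested probe sets. MRPL48, a protein of the central protuberance, measured 12.80, 12.96, 12.76 and 12.15 in D5 to D8 and 10.52, 11.64, 10.11 and 10.97 in 0292, 0294, 1087 and 1111. Its difference was -1.86 (SE 0.58, limma adjusted p = 0.144), and all DM dogs were below all control dogs. MRPL46, also of the central protuberance, differed by -1.60 (SE 0.67, limma adjusted p = 0.25), from 9.96 to 10.68 in control dogs and 7.03 to 9.70 in DM dogs. Without 0292 its difference was -1.02. MRPL46 no longer passed an unadjusted p of 0.05 when 0292, D5, D6 or D8 was left out. MRPL57 differed by -1.56 (SE 0.58, limma adjusted p = 0.205) and MRPL43 by -1.67 (SE 0.62, limma adjusted p = 0.205). Neither of these overlapped between groups.

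MRPL45 holds the ribosome at the inner membrane, where new chains are inserted. Its probe set 1584481_s_at measured 11.29 to 11.59 in control dogs and 8.68, 10.12, 9.99 and 10.46 in 0292, 0294, 1087 and 1111, with a difference of -1.58 (SE 0.59, limma adjusted p = 0.206). The other probe set of MRPL45, 1584480_at, gave the opposite sign, with 11.66, 11.68, 11.76 and 13.54 in D5 to D8 and 12.96 to 13.66 in DM dogs. The difference there was 1.15 (SE 0.62, limma adjusted p = 0.371), with D8 inside the range of DM dogs. Like every member, it was below 0 after scaling to the hybridization controls. Of the other proteins of this class, MRPL38 differed by -1.63, MRPL39 by -0.63 and MRPL40 by -0.23, MRPL52 by -1.08 and -0.92 in its 2 probe sets, and MRPL42 by 1.17 and 0.07. Among these, MRPL39 was the only one whose groups did not overlap, with 12.15 to 12.76 in control dogs and 11.36 to 12.14 in DM dogs.

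The small subunit had 27 of 35 probe sets below 0 and a median difference of -0.72, and the large subunit 28 of 45 and a median of -0.41. Groups did not overlap, with DM dogs lower, in 10 small subunit probe sets (28.6%) and in 8 large subunit probe sets (17.8%), compared with 5.87% of all. At an unadjusted p under 0.05, 9 in each were lower (25.7% and 20%), compared with 8.91% of all. Whether the subunits differ was not tested. Assigned by structure, with MRPS30 and MRPS18A moved to the large subunit in which they reside and MRPS36 left out, the medians were -0.78 over 31 probe sets and -0.47 over 48.

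MRPS12, a protein of the decoding site, was lower in all 3 of its probe sets. The probe set 1596725_s_at measured 11.04, 11.36, 11.04 and 10.03 in D5 to D8 and 5.61, 5.87, 7.72 and 9.76 in 0292, 0294, 1087 and 1111. The groups did not overlap, although 1111 came close to D8, and the difference was -3.63 (SE 0.86, limma adjusted p = 0.0867). For 1596727_s_at the difference was -2.76 (SE 0.73, limma adjusted p = 0.101), with 10.64 to 11.97 in control dogs and 6.95 to 10.19 in DM dogs. For 1596726_at, a dimmer probe set, it was -1.87 (SE 0.66, limma adjusted p = 0.184), and the lowest dog was 1111 at 4.87. Without 1111, the highest DM dog in the former 2 probe sets, these had differences of -4.47 (limma adjusted p = 0.0244) and -3.23 (limma adjusted p = 0.047). Leaving out any other dog brought neither to an adjusted p under 0.05. In the comparison without 1111, 1.52% of all probe sets were lower and 0.508% higher at an adjusted p under 0.05, and MRPL23 was the remaining member among them.

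MRPS7 and MRPS14 are proteins of the head of the small subunit. MRPS7 was nearly constant in control dogs, at 10.11 to 10.27, and measured 8.20, 8.58, 6.31 and 9.31 in 0292, 0294, 1087 and 1111. Its difference was -2.08 (SE 0.68, limma adjusted p = 0.158). MRPS14 measured 12.82, 13.04, 12.95 and 12.47 in D5 to D8 and 12.16, 11.51, 11.40 and 10.91 in DM dogs, a difference of -1.33 (SE 0.56, limma adjusted p = 0.254). In both genes every DM dog was below every control dog, D8 included. MRPS14 missed an unadjusted p of 0.05 when D5, D6, D7, 1087 or 1111 was left out. MRPS15, which forms a bridge to the large subunit, had differences of -1.63, -1.16, -1.01 and -0.37 in its 4 probe sets, none past an unadjusted p of 0.05. MRPS5, MRPS16 and MRPS21 had differences of -0.80, -0.90 and -0.67, and MRPS9 of 1.14, with overlapping groups in all 4 genes. MRPS9, like every member, was below 0 after scaling to the hybridization controls.

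DAP3 is a GTP-binding protein of the small subunit that was named for a role in cell death. Its probe set 1592520_at measured 9.85, 10.03, 9.74 and 9.12 in D5 to D8 and 5.82, 7.51, 8.42 and 8.58 in 0292, 0294, 1087 and 1111. The difference was -2.10 (SE 0.69, limma adjusted p = 0.16). The other probe set, 1592519_at, differed by -1.10 (SE 0.60, limma adjusted p = 0.379), with 9.29 to 9.60 in control dogs and 7.21 to 9.19 in DM dogs. Neither probe set of DAP3 overlapped between groups.

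MRPS26, a small subunit protein found only in mitochondria, measured 9.72 to 10.11 in control dogs and 4.50, 8.15, 7.61 and 10.09 in 0292, 0294, 1087 and 1111. Its difference of -2.33 (SE 0.94, limma adjusted p = 0.239) rested on 3 DM dogs, since 1111 lay within the control range, and it was -1.30 without 0292. MRPS26 missed an unadjusted p of 0.05 when D5, D7, 0292 or 1087 was left out. The other small subunit proteins of this class had differences of -1.50 and -0.65 (MRPS25), -0.03 (MRPS22), 0.51 (MRPS27), 0.77 and -0.72 (MRPS31), 0.44 (MRPS33) and 1.41 (MRPS35), all at an unadjusted p above 0.05. In MRPS22, control dogs measured 9.75 to 10.01, and among DM dogs 0292 at 11.21 lay above the others at 9.29 to 9.59. The probe sets of MRPS27 and MRPS33 were dim, with means of 6.14 and 5.84.

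Of the proteins of the S18 family, MRPS18B and MRPS18C lie in the small subunit and MRPS18A in the large subunit. MRPS18A measured 10.36, 10.57, 9.79 and 8.92 in D5 to D8 and 7.87, 8.26, 7.86 and 8.88 in 0292, 0294, 1087 and 1111. Its difference was -1.70 (SE 0.60, limma adjusted p = 0.188), and D8 and 1111 almost met. MRPS18C had differences of -0.78, -0.71 and -0.65 in its 3 probe sets, and in 1601131_s_at no DM dog, at 8.59 to 9.57, reached the control dogs at 9.78 to 9.98. MRPS18B was close to 0, with a difference of -0.02 (SE 0.62). MRPS30, a large subunit protein despite its symbol, had differences of -0.57 and -0.34.

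Both members that were higher in DM dogs at an unadjusted p under 0.05 carry a qualification. MRPL1 belongs to a mobile stalk that guides spent transfer RNA out of the ribosome. Its probe set 1605861_s_at measured 10.40, 10.09, 9.93 and 12.10 in D5 to D8 and 13.80, 12.69, 12.22 and 11.78 in 0292, 0294, 1087 and 1111. The difference was 1.99 (SE 0.69, limma adjusted p = 0.178), and D8 lay among the DM dogs. This probe set was among the 10 members that stayed past the unadjusted limit in every comparison that left out 1 dog. Its differences there ran from 1.60 to 2.48. After median centring its difference was 1.12 and missed the limit. Scaling to the hybridization controls, which put every member below 0, gave -0.72, which says nothing about this probe set. The other MRPL1 probe sets differed by 1.27 and 0.30, and MRPL11, at the base of the other stalk, by -0.07. MRPL16, which lies next to the transfer RNA sites, differed by 1.85 in 1603899_x_at (SE 0.85, limma adjusted p = 0.293), a probe set whose suffix marks probes that can bind other transcripts. The 1603899_x_at difference missed the limit when D5, D8, 0292, 0294 or 1087 was left out, and was smallest without D8, at 1.35. It also missed the limit without quantile normalization, at 1.55, and after median centring, at 0.96. Scaling to the hybridization controls gave -0.83, which again says nothing about this probe set. The other MRPL16 probe set, 1583768_at, differed by -1.23.

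In the members that were higher in DM dogs, control dog D8 usually had a value like that of DM dogs. Of the 25 probe sets above 0, D8 lay above each of D5, D6 and D7 in 21, within the range of DM dogs in 20 and nearer to the DM mean than to the mean of D5 to D7 in 20. Their median deviation from the mean of D5, D6 and D7 was 1.34 in D8 and 1.35 in the mean of DM dogs. Among the 55 probe sets below 0, D8 lay within the range of DM dogs in 30, above all 4 of them in 24 and nearer to the DM mean in 17, with a median deviation of -0.15 compared with -1.14 in DM dogs. The 18 members lower at an unadjusted p under 0.05 were picked by a test that counts D8 as a control dog. Among them D8 was above all DM dogs in 15, a position that this choice favours, and was the lowest control dog in 12. The same D8 array had hybridization controls in the range of DM dogs, and the part of this in its values was not tested.

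**Figure D2:**
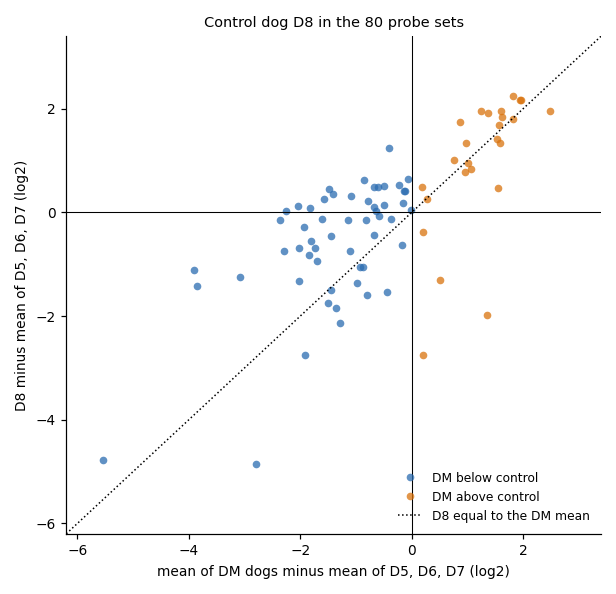
Each point is 1 of the 80 member probe sets, with the DM mean (horizontal axis) and the value of control dog D8 (vertical axis) as log2 differences from the mean of control dogs D5, D6 and D7; blue points lay below 0 in DM dogs against all 4 control dogs and orange points above 0, and the dotted line marks equal values. Orange points gather along the dotted line, with D8 nearer to the DM mean in 20 of 25, while most blue points lie above it.

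Leaving out D8 therefore changed the higher members more than the lower ones. At an unadjusted limma p under 0.05, 19 members were lower and 10 higher without D8, compared with 9.62% and 8.02% of all tested probe sets. The 10 were probe sets of MRPL1, MRPL19, MRPL30, MRPL42, MRPL45, MRPL47, MRPS9, MRPS35 and MRPS36, with differences from 1.52 (MRPL42) to 2.48 (MRPL1). None had an adjusted p under 0.05, the smallest being 0.0859 for MRPL1. By the criteria of the methods 7 members were lower and 7 higher, compared with 3.05% and 3.08% of all, and groups did not overlap in 24 lower and 15 higher members, compared with 11.7% and 9.24% of all. With D8 included the corresponding counts of higher members were 2, 0 and 0.

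Of the 5 genes with the highest signal, MRPS36, MRPS35, MRPL42 and MRPL45 were among these, although signals of different probe sets do not compare as amounts of RNA. MRPS36, which despite its symbol is a component of the oxoglutarate dehydrogenase complex of the citrate cycle, measured 13.80, 13.36, 14.28 and 15.76 in D5 to D8 and 15.10 to 15.71 in DM dogs. Its difference was 1.11 (SE 0.64, limma adjusted p = 0.406), and 1.60 without D8. MRPS35 measured 11.95, 11.78, 12.60 and 14.27 in D5 to D8 and 12.89 to 14.87 in DM dogs, a difference of 1.41 (SE 0.71, limma adjusted p = 0.336). MRPL42 gave 11.96, 11.76, 12.57 and 13.51 in control dogs and 13.02 to 14.18 in DM dogs with its brighter probe set. In all 3 genes D8 was the highest control dog and reached the DM range. All 3, like every member, were below 0 after scaling to the hybridization controls. The remaining gene of the 5 was MRPS15, whose brightest probe set, at 12.79 to 13.44 in control dogs and 11.49 to 13.82 in DM dogs, overlapped between groups.

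Probe sets of the same gene did not always agree in direction. Of the 55 genes, 39 had 1 probe set and 16 had 2 to 4. Among these 16 genes all probe sets lay below 0 in 7 genes, all above 0 in 2 and on both sides in 7. The widest spreads were in MRPL14 (-4.34 to 1.44), MRPL16 (-1.23 to 1.85), MRPS28 (-1.84 to 0.89), MRPL45 (-1.58 to 1.15) and MRPL47 (-0.41 to 1.38). In MRPS28 the brighter probe set 1583785_s_at was lower, with 9.06 to 9.59 in control dogs and 5.50, 7.94, 7.99 and 8.85 in DM dogs (difference -1.84, SE 0.72, limma adjusted p = 0.226, and -1.15 without 0292), while the other 2 were dim and differed by 0.83 and 0.89. In MRPL47, a tunnel exit protein, the 2 bright probe sets differed by 0.76 and 1.38 and the dim one by -0.41. MRPL21 had differences of -0.72, -0.23 and 0.89, again with the opposite sign in the dimmest probe set. Which part of each transcript or which splice form a probe set detects was not analysed here.

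**Figure D3:**
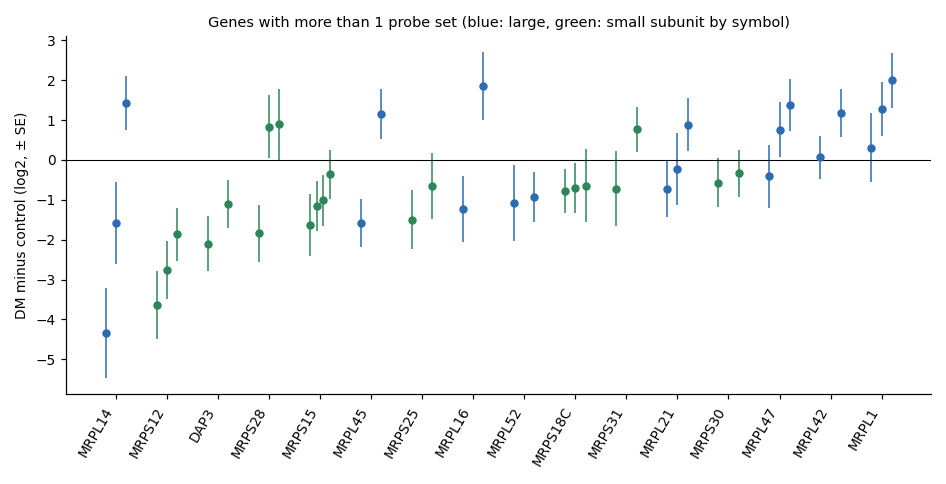
Difference between DM and control dogs (log2, vertical axis) for every probe set of the 16 genes with more than 1, as points with bars of ± 1 SE from limma; blue genes belong to the large and green genes to the small subunit by symbol. MRPS12 and DAP3 lie below 0 in all their probe sets, whereas 7 genes, among them MRPL14, MRPS28 and MRPL45, have points on both sides of 0.

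Most members were bright, and brightness itself went with the direction of difference on these arrays. All tested probe sets were divided into 5 bins of equal size by mean signal over the 8 arrays, and 53 of the 80 members fell in bin 5, the brightest, and 16 in bin 4. In bin 4 the median difference was -1.54 for members and -0.37 for all tested probe sets, 15 of 16 members lay below 0, and 37.5% of members compared with 12% of all were lower at an unadjusted p under 0.05. In bin 5 the medians were -0.57 and -0.24, with 20.8% and 17.5% lower at that level and 22.6% and 14.7% without overlap. The 7 members of the 2 dimmest bins had medians of 0.44 and 0.22, close to the 0.47 and 0.36 of all probe sets there. In bin 3, with 4 members, the medians were -1.43 for members and -0.07 for all probe sets, and 3 of the 4 members lay below 0.

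**Figure D4:**
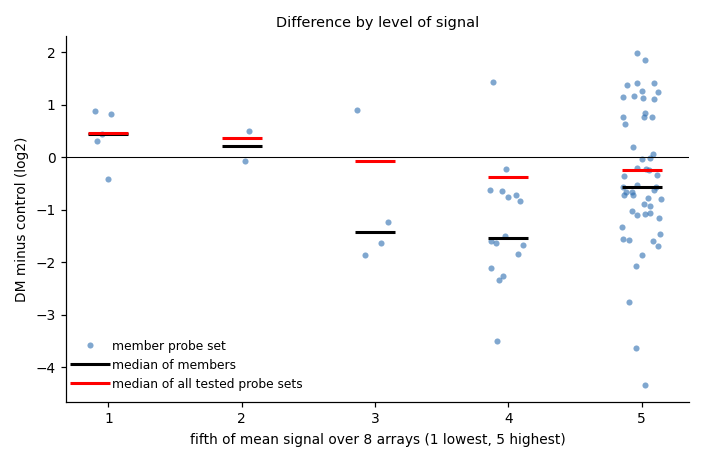
Difference between DM and control dogs (log2, vertical axis) of member probe sets (blue points) in 5 bins of mean signal over 8 arrays (horizontal axis, 1 dimmest), with black bars for the median of members and red bars for the median of all tested probe sets in the bin. The medians are close in bins 1 and 2, differ by more than 1 in bins 3 and 4 (-1.54 against -0.37 in bin 4), and lie at -0.57 and -0.24 in bin 5.

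DM dogs varied more among themselves than control dogs did, with a larger SD in 58 of the 80 member probe sets and in 76.7% of all tested probe sets. Over members, the median SD among control dogs was 0.482 and that among DM dogs 0.985. In each probe set the control dogs' deviations from the control mean average 0 by construction, which does not hold any given dog near 0. The median over members of each dog's deviation was 0.02, -0.05, 0.01 and 0.05 in D5, D6, D7 and D8, and -0.77, -0.16, -0.47 and -0.25 in 0292, 0294, 1087 and 1111. For the small subunit the DM dogs had -1.26, -0.37, -0.94 and -0.34, and for the large subunit -0.55, 0.21, -0.16 and -0.12, so that 0294 lay above the control mean in the large subunit. Dog 0292 was the lowest of all 8 dogs in 26 of the 80 probe sets, followed by 1087 with 15, and was the lowest DM dog in 8 of the 18 lower members. Without 0292 the members' median difference was -0.36. This dog also had the brightest hybridization controls, at 17.72, and the part of that in its values was not tested.

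By descent, the 32 genes with a bacterial counterpart had a median difference of -0.63 over 50 probe sets and the 19 genes found only in mitochondria a median of -0.69 over 26 probe sets. The groups did not overlap, with DM dogs lower, in 9 (18%) and 8 (30.8%) of these probe sets, compared with 5.87% of all tested probe sets. The 7 proteins around the tunnel exit had a median of -0.55 over 10 probe sets, and besides MRPL23 and MRPL45 they included MRPL39 without overlap. MRPL58, a release factor relative that frees stalled chains, had a difference of 0.21 (SE 0.53), with 8.89 to 9.32 in control dogs and 9.19 to 9.54 in DM dogs. Among members with a mean signal in the 2 brightest of 5 bins, those nearest to 0 were MRPS18B, MRPS22, MRPL42 (0.07 in its dimmer probe set), MRPL58 and MRPL3. Their SEs of 0.53 to 0.62 leave room for differences of similar size in either direction, so that equal levels are not shown.

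Genes that act together with the ribosome in mitochondrial gene expression were described in the same way. Of 7 translation factors with 10 probe sets, the median difference was -0.42, with 2 probe sets (20%) lower and 2 (20%) higher at an unadjusted p under 0.05, where 8.91% and 7.8% of all probe sets passed. TUFM, the elongation factor that delivers aminoacylated transfer RNA, measured 9.05 to 9.51 in control dogs and 6.81, 4.91, 8.24 and 6.71 in 0292, 0294, 1087 and 1111, a difference of -2.67 (SE 0.70, limma adjusted p = 0.101) that met the criteria of the methods. The other 3, named after their values were seen, were the elongation factor GFM1 (-2.11) and the initiation factors MTIF2 (1.44) and MTIF3 (2.04, and -1.27 in its other probe set). The former difference of MTIF3 was 1.13 without D8. Mitochondrial transfer RNA synthetases, with 15 probe sets of 9 genes, had a median of -0.46 and 3 probe sets (20%, against 8.91% of all) lower at an unadjusted p under 0.05, 2 of VARS2 (-1.82 and -1.72) and 1 of WARS2 (-1.63), again named after their values were seen.

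Mitochondrial transcription, RNA processing and ribosome assembly were represented by 27 probe sets of 14 genes, with a median of -1.10. At an unadjusted p under 0.05, 9 (33.3%) were lower and 1 (3.7%) higher, compared with 8.91% and 7.8% of all probe sets, and 4 (14.8%, compared with 2.52% of all) were lower by the criteria of the methods. OXA1L inserts newly made mitochondrial proteins into the inner membrane and binds the ribosome near MRPL45. Its 3 probe sets past those criteria differed by -3.53, -3.46 and -1.77 with no overlap between groups, although the suffix of each marks probes that can bind other transcripts. HSD17B10, a subunit of the mitochondrial RNase P, measured 9.66, 10.33, 9.98 and 8.24 in D5 to D8 and 4.92 to 7.71 in DM dogs, a difference of -3.29 (SE 0.73, limma adjusted p = 0.0777). Ribosomal proteins with other names were measured by 3 probe sets of CHCHD1 and PTCD3, with differences of -1.42, 0.31 and -1.16.

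Among regulators of mitochondrial biogenesis, with 11 probe sets of 8 genes and a median of -0.54, the coactivators PPRC1 and PPARGC1A had lower signal by the criteria of the methods, in 2 probe sets (18.2%, compared with 2.52% of all). PPRC1 differed by -2.10 (SE 0.64, limma adjusted p = 0.139), with 7.62 to 8.63 in control dogs and 4.83 to 7.25 in DM dogs. PPARGC1A was dim and differed by -1.17 in 1596366_at (SE 0.54, limma adjusted p = 0.298), with 6.89 to 7.05 in control dogs and 5.32 to 6.21 in DM dogs, and by -1.80 in its other probe set.

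The members' median of -0.64 lay between the median of all probe sets and that of the respiratory chain. Subunits of the respiratory chain and ATP synthase, with 99 probe sets of 54 genes, had a median of -1.54 and 53 probe sets (53.5%) lower and 1 higher at an unadjusted p under 0.05, where 8.91% and 7.8% of all passed. Groups did not overlap, with DM dogs lower, in 47 (47.5%) of these, compared with 22.5% of the members and 5.87% of all, and the probe sets with the largest change by the criteria of the methods were of ATP5MC1 (-5.43), UQCRFS1 (-4.99) and NDUFS3 (-4.79). Cytosolic ribosomal proteins, with 181 probe sets of 63 genes, had a median of -0.82, with 47 probe sets (26%) lower and 17 (9.39%) higher at an unadjusted p under 0.05, and 19 (10.5%) lower and 15 higher without overlap, compared with 5.87% and 4.93% of all. Among these, RPL19 (-3.99), RPL15 (-3.93) and RPS15 (-3.65) had the largest change by the criteria of the methods. These are counts and medians over lists of unequal size, and differences between the lists were not tested.

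**Figure D5:**
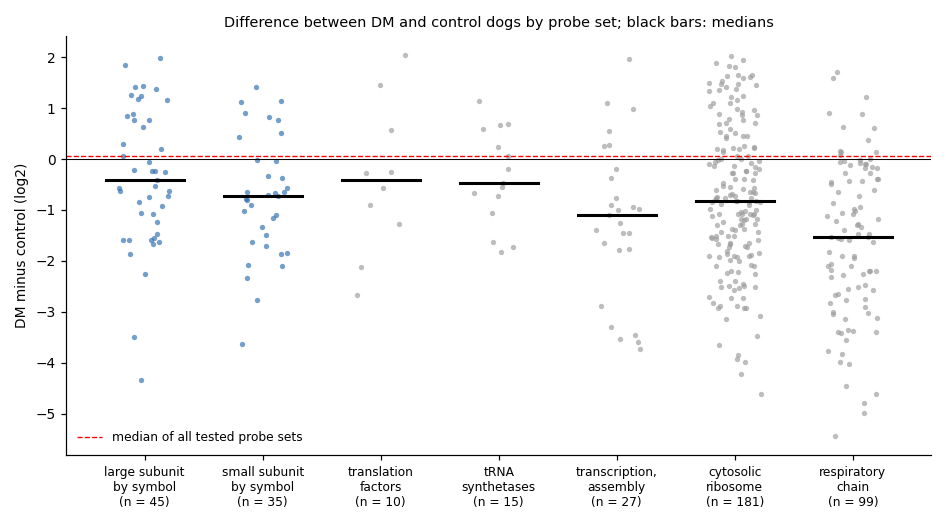
Difference between DM and control dogs (log2, vertical axis) of each probe set in 7 gene lists, with black bars for medians and a red dashed line at the median of all tested probe sets (0.06); n is the number of probe sets. The medians of the large (-0.41) and small (-0.72) mitochondrial ribosomal subunits lie between that line and the respiratory chain (-1.54). After scaling to the hybridization controls, which shifts every probe set by construction, no member lies above 0.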

How the data were processed

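Left ventricular RNA of 4 control and 4 DM dogs was hybridized to 1 array per dog, and dogs were the replicates. The deposited values are signal intensities on a linear scale, which the authors computed with MAS5 (named in the submitters' processing notes, version not given) and scaled to a trimmed mean of 500.0 to 500.1 per array. The methods also name RMA, which was not applied here. Each array was rescaled to the same trimmed mean (2% trimmed at each end), quantile normalized, increased by 16 and log2 transformed. This offset stands in for the variance stabilization of the methods and understates changes of dim probe sets. After leaving out 77 control probe sets of the 23913 on the array, the groups were set against each other in limma 3.58.1 (R 4.3.3) with two-sided p values, adjusted by Benjamini-Hochberg across 23836 probe sets. The fit was tested on simulated data. The two-class test of the methods was run on the same values. Array measures were compared by exact permutation over 70 assignments. Figures were drawn with matplotlib 3.10.9 in Python 3.11.15.

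Array annotation gave 1 gene symbol for 10549 probe sets, several for 138 and none for 13149. Of the 55 member genes, 50 were found by gene identifier in the RefSeq annotation of dog, which lists 77 genes of such names. Named members were those past an unadjusted p of 0.05, the 5 genes with the highest signal, the 5 with the widest spread between probe sets, the 5 nearest to 0 among brighter probe sets, and DAP3, MRPS18A, MRPS18B, MRPS18C and MRPS30, and further members are given by range. In other lists, up to 3 genes past the criteria of the methods were named. The members, lists and roles were chosen with earlier results of these data known. Alternatives were the scaling, the offset, a filter on dim probe sets, 1 probe set per gene and leaving out dogs. Detection calls were not used here, so that dim probe sets were not told apart from those without a detected transcript. The precision is limited by the number of arrays. No sequences are given.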

Additional observations from a re-analysis of the deposited data

Results flagged for a closer look

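In 98 groups of 4 dogs, for the 49 probe sets of the genes named by rule, the highest or lowest dog was compared with the spread of the others, and 9 stood apart, where chance alone gives about 5% of groups. Of these 9, 5 were in control dog D8. D8 lay above the other control dogs in MRPL45 (1584480_at, 13.54 against 11.66 to 11.76), MRPL47 (1591360_s_at, 13.42 against 11.34 to 11.60) and MRPL14 (1602497_at, 7.77 against 7.26 to 7.34). It lay below them in MRPL20 (9.0 against 9.88 to 10.03) and MRPS12 (1596726_at, 8.07 against 8.32 to 8.37). Its hybridization controls were also apart, at 15.77 against 13.09 to 13.36.

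DM dog 0292 stood apart in MRPL3 (8.85 against 10.51 to 10.69), MRPS22 (11.21 against 9.29 to 9.59) and MRPS28 (1603424_at, 8.56 against 5.32 to 5.56). Control dog D7 stood apart in MRPS30 (1592523_at, 11.65 against 11.02 to 11.12).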

How the results depend on the processing

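The members' median difference lay below 0 under every alternative run. Under scaling to the hybridization controls that sign was set by the scaling itself and is no check. The median difference was -0.64 as reported, -1.20 after median centring, -2.96 after scaling to the hybridization controls and -0.71 to -0.36 when 1 dog was left out, the last without 0292. The counts of members that follow have the share of all tested probe sets past the same limit beside them. Members with an adjusted p under 0.05 numbered 0 as reported (0.0168% of all lower, 0% higher), 3 after median centring (0.936%, 0.0671%), 54 after scaling to the hybridization controls (32.2%, 0.0126%), 3 with an offset of 64 (1.31%, 0.558%) and 0 to 3 without 1 dog, with 2 without D8 (0.94%, 0.495%) and 3 without 1111 (1.52%, 0.508%). Lower members at an unadjusted p under 0.05 numbered 18 as reported (8.91%), 28 after median centring (13.4%), 58 after scaling to the hybridization controls (45.2%) and 12 to 21 without 1 dog (5.76% to 10.7%). Higher members numbered 2 as reported (7.8%), 0 after median centring (4.14%), likewise 0 on the scale of the hybridization controls (0.0629%), 1 with an offset of 1 (7.8%), 9 with an offset of 64 (7.82%), 4 without dim probe sets (7.8%), 1 with 1 probe set per gene (7.86%) and 1 to 10 without 1 dog (4.96% to 9.59%), the highest without D8 (8.02%). By the criteria of the methods, 7 were lower as reported (2.52%), 4 after median centring (2.86%), 22 after scaling to the hybridization controls (10.8%) and 2 to 10 without 1 dog (1.19% to 4.16%). By those criteria 0 were higher as reported (2.45%), with 0 to 7 without 1 dog (1.36% to 3.08%). Members without overlap numbered 18 (5.87%), and 18 to 24 without 1 dog (6.46% to 11.7%). Leaving out D8 together with 0292 was added after the data were seen, and there 5 members had an adjusted p under 0.05 (1.84% of all lower, 1.92% higher), 12 were higher at an unadjusted p under 0.05 (10.8%), 7 were higher by the criteria of the methods (4.48%) and 31 were lower without overlap (15.4%). Scaling to the hybridization controls turned MRPL1 (1605861_s_at) to -0.72 and MRPL16 (1603899_x_at) to -0.83. By construction it carries the group difference of these controls over to the probe sets, less so to dim ones. The cause of the other changes was not tested.

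No paired analysis was run because the labels give no pairing of control dogs with DM dogs. With 4 arrays per group and dim probe sets close to the offset, small differences could not be detected, and the counts of higher members depended on D8 more than those of lower members did.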
